A study of Mus musculus with 41 samples.

Results

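The genes described here are 10 genes listed as paternally expressed at imprinted loci with a differentially methylated region (DMR) that is methylated in the egg and not in sperm: Snrpn, Peg3, Mest, Impact, Nnat, Zrsr1, Sgce, Inpp5f, Plagl1 and Nap1l5. They were chosen by name, and all 10 were found among the 24028 gene symbols of the RNA-seq files, each on 1 row. That row does not separate the transcripts of a gene, so imprinted and other transcripts cannot be told apart. The study derived androgenetic haploid embryonic stem cells (AG-haESCs), mouse stem cells that hold a single genome from sperm, and asked how the culture medium affects their paternal imprints. RNA was measured by amplifying cDNA from a small number of haploid cells, and the deposited unit is FPKM, a count of fragments scaled by transcript length and library size.

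All 13 libraries came from C57BL/6 haploid cells. The wild-type line 2i-14, kept in 2i/L (serum, LIF, the MEK inhibitor PD0325901 and the GSK3 inhibitor CHIR99021), gave 3 libraries, at passages p18, p39 and p50. Wild-type lines derived by the 2-step TSa2i/L protocol, in which serum-free medium holds LIF, CHIR99021 and the Src inhibitor CGP77675, gave 5 libraries. These were p22, p47 and p54 of TSa2i-14, and p9 and p58 of TSa2i-C57. The study lists TSa2i-14 with actin-EGFP and TSa2i-C57 without it, so wild type here means without a DMR deletion. In 2i-O48 H19-DMR and IG-DMR are deleted, and 2i-O48-TKO lacks both and also the gene H19. These lines, which by name may share an origin, gave 1 library each in 2i/L, with no passage in the labels. Both, and 2i-14, gave 1 further library each, 5 passages after a switch to the serum-free SF/a2i/L medium, here called switched. Libraries of 1 line are cultures of it at other passages or in another medium, so p-values measure the spread between these cultures.

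At these loci the egg's methylation silences the maternal copy, and the copy from sperm, which lacks that methylation, is transcribed. The zinc finger protein ZFP57 binds the methylated hexamer TGCCGC at imprinted DMRs and, with TRIM28, keeps the mark through the demethylation of the early embryo. A cell with a sperm genome only therefore holds just the copy that is normally active. The 10 genes have unrelated products. Snrpn and Zrsr1 encode splicing proteins, Peg3 and Plagl1 zinc finger proteins, and Nap1l5 a relative of nucleosome assembly proteins. Impact encodes a regulator of the translation-control kinase GCN2, Sgce epsilon-sarcoglycan, Nnat the small membrane protein neuronatin, Inpp5f a phosphoinositide phosphatase and Mest a protein of the hydrolase fold.

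The hexamer was looked for, as TGCCGC or its reverse complement GCGGCA, in RefSeq promoter windows of 300 bases, 250 before a transcription start and 50 after it (RefSeq build GRCm38.p6). 8 of the 10 members had a window, and Sgce and Impact had none. All 13 windows of the 8 genes matched NCBIM37 (mm9), the build of the files, exactly and at 1 position, and mm9 positions are given. 5 members held the hexamer in a window, Mest, Nap1l5, Nnat, Plagl1 and Snrpn, and 3 did not, Peg3, Inpp5f and Zrsr1. By windows, 6 of the 13 held it, of which 2 are Mest windows that overlap almost wholly, and 11.6% of all 32851 windows did. A match is a description of the letters only. The windows are at transcription starts and were not chosen as DMRs, so a gene without a match may hold the hexamer elsewhere. The 11.6% is over all windows, whatever their CpG content, and the hexamer itself holds a CpG. The 7 matches are shown as 30 bases each, 5′ to 3′ on the strand of the gene, with the hexamer in capitals, since they are the sequence the 5 genes share with the ZFP57 motif.
Mest, chr6:30687800-30687829, plus strand: ccttgcccGCGGCAttaacacatgggaagg
Mest, chr6:30687971-30688000, plus strand: aggaggggcgctGCGGCAggatgggcgggt
Nap1l5, chr6:58857127-58857156, minus strand: cagccattcactTGCCGCgagccgcgaagc
Nap1l5, chr6:58857076-58857105, minus strand: gccgtcagcgttTGCCGCatcttcagacgc
Nnat, chr2:157385829-157385858, plus strand: gccaccggggctGCGGCAttgcgcccagca
Plagl1, chr10:12810536-12810565, plus strand: ctggcgtgttgcGCGGCAaagcccacggca
Snrpn, chr7:67150070-67150099, minus strand: gacccctgcattGCGGCAaaaatgtgcgca
In the GENCODE vM1 annotation of mm9, both Mest sites and the Snrpn site lay outside exons. They lay within the Mest and Snrpn genes, whose longer transcripts start further upstream. The Snrpn hexamer began 2 bases before the RefSeq start of its window and so ran across that start. The Plagl1 and Nnat sites and the second Nap1l5 site lay wholly in annotated exons. The first Nap1l5 site lay outside exons, in the window that falls inside Herc3.

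The 250 bases before the Mest start that holds both sites are printed whole, because Mest had the widest range over the 13 libraries and this window overlaps no annotated exon. It held the hexamer 242 and 67 bases before the start, and the 300-base window held 17 CpG, against a median of 7 over all windows.
Mest, chr6:30687800-30688049, plus strand: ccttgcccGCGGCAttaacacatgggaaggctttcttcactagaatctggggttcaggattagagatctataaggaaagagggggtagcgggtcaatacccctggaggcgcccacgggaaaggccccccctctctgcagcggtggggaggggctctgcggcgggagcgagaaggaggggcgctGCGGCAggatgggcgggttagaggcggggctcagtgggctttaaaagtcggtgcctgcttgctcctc
The other windows with the hexamer held between 7 CpG, for Snrpn, and 26 CpG, for Plagl1. In the 3 members without it there were 10 CpG in Zrsr1, 13 in Peg3 and 15 in Inpp5f.

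The libraries listed between 9258 and 10320 genes at 1 FPKM or more. Depth is not given with FPKM values, and the smallest values implied 12700000 to 20000000 fragments per library. All 8 pluripotency markers were expressed in every library, at 10.7 FPKM or more, and 1 of 6 primitive endoderm markers reached 1 FPKM in any library. The 15 fibroblast markers stood apart in 3 libraries, 2i-14 p39, TSa2i-14 p54 and TSa2i-C57 p58, whose mean log2(FPKM + 1) of the list was 1.51 to 2.46, against 0.209 to 0.615 in the other 10. Their summed FPKM was 48.2 to 147.5 in the 3 libraries and 2.56 to 11.4 in the others, and Dcn, a fibroblast proteoglycan, was listed at 0 in 3 of the others. Eif2s3y, a Y-linked gene, was at 1.22 to 3.12 FPKM in the same 3 libraries and at 0.166 or less in the rest. The study grew its haploid cells on a feeder layer throughout, and used ICR embryonic fibroblasts for derivation. Whether feeder RNA adds to the FPKM of the members was not tested. H19 was listed at 0 in 2i-O48-TKO and at 0.0686 FPKM in its switched culture, but also at 0 in 4 libraries that hold the gene, so its level checks no label. Some results that use the 3 libraries are also given without them, chiefly those of Sgce and Mest. Others are given with them only.

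All 10 genes were detected, and their levels spanned more than 2 orders of magnitude. By the median over the 13 libraries, in FPKM, Snrpn led with 200.5, followed by Impact with 48.6, Mest with 18.2, Plagl1 with 9.98, Sgce with 9.75, Nnat with 4.40, Peg3 with 2.27, Zrsr1 with 1.61, Inpp5f with 1.50 and Nap1l5 with 0.583. Snrpn was above Impact in all 13 libraries, with ranges that did not overlap, and stood above 96.6% to 98.6% of all listed genes. Other neighbours in this order overlapped in their ranges. The order of Plagl1, Sgce and Nnat differed between media. Plagl1 was above Sgce in all 5 libraries in 2i/L, in 0 of 5 in TSa2i/L and in 1 of 3 switched ones, and Sgce was above Nnat in 2 of 5, 5 of 5 and 0 of 3. Nap1l5 reached 1 FPKM only in TSa2i-14 p54, at 1.35, and that library had the highest fibroblast level. In switched 2i-O48 Nap1l5 was listed at 0, under the 3-fragment floor.

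**Figure D1:**
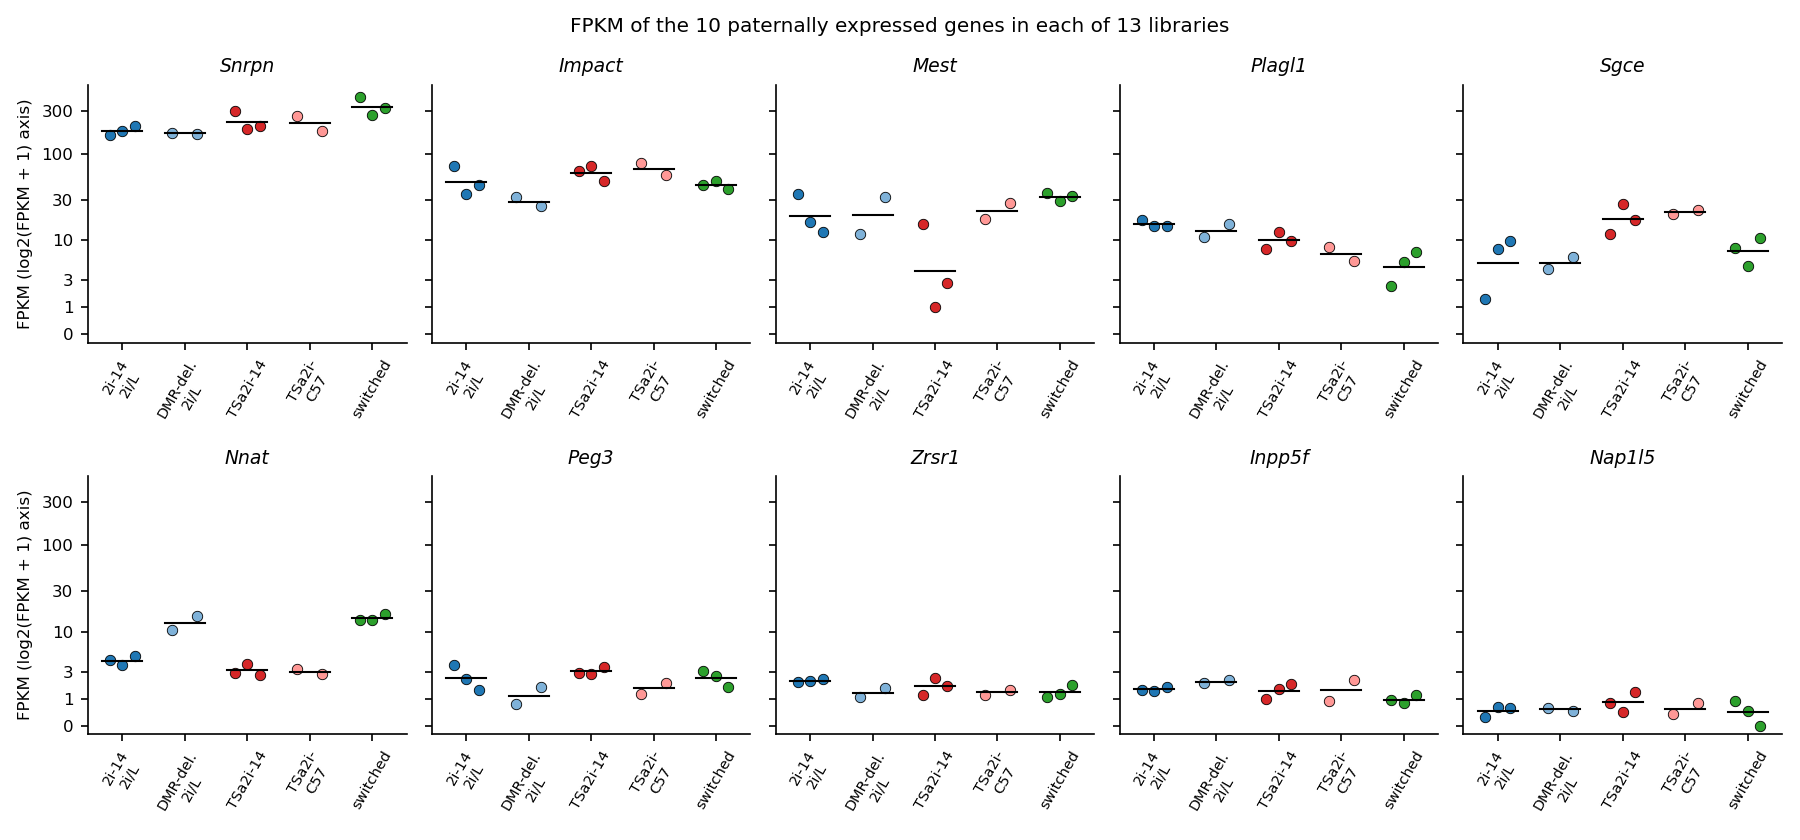
FPKM of each of the 10 genes in 13 libraries, on a log2(FPKM + 1) axis. Points are libraries, and black bars are the mean of log2(FPKM + 1) in 2i-14 in 2i/L, the DMR-deleted lines in 2i/L, TSa2i-14, TSa2i-C57 and the switched cultures. Sgce was highest in the TSa2i/L lines, Snrpn in the switched cultures, and Mest spread from 1.03 to 35.8 FPKM.

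The genes differed in how much they varied. The highest library of Snrpn was 2.62 times the lowest, and that of Impact 3.06 times, Zrsr1 2.24 times and Inpp5f 2.80 times. Mest ranged over 34.6 times and Sgce over 18.4 times, and both ratios rest on 1 library. Without TSa2i-14 p47 the ratio of Mest was 13.4, under that of Sgce, and without 2i-14 p18 the ratio of Sgce was 6.37. The remaining genes lay between, Peg3 at 4.93 times, Nnat at 6.07 times and Plagl1 at 7.23 times.

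Some of these values share reads with other genes, because the amplification does not keep the strand. In the GENCODE vM1 annotation of mm9, Mest (chr6:30673547-30698457) overlapped Copg2 on the other strand and the microRNA gene Mir335, sharing at most 904 exon bases with either. Nnat (chr2:157385814-157388258) lay inside Blcap and shared at most 87 exon bases with any gene on the other strand. Zrsr1 (chr11:22873215-22876498) lay inside Commd1 and shared 203. Commd1 was at 339 to 631 FPKM, far above Zrsr1 at 1.08 to 2.41, and Zrsr1 is also a retrogene copy of Zrsr2, which was at 19.7 to 33.0 FPKM, so the Zrsr1 values are uncertain. Nap1l5 (chr6:58855228-58857120) lay inside Herc3 with no shared exon base. Snrpn (chr7:67127388-67285105), Peg3 (chr7:6656603-6683132), Sgce (chr6:4624350-4697204) and Plagl1 (chr10:12810497-12851500) overlapped no other annotated gene. Inpp5f (chr7:135754842-135839939) overlapped Gm16044 with no shared exon base. Snurf is encoded by the same transcript as Snrpn, and the ratio of Snrpn to Snurf FPKM was 18.3 to 19.6 in every library.

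The first comparison asked how wild-type cells kept in TSa2i/L differed from wild-type 2i-14 cells in 2i/L. Among the 9 members tested, 1 rose, Sgce, and none fell at an adjusted p under 0.05 (limma on log2(FPKM + 1), Benjamini-Hochberg adjustment over 10387 genes). Over all genes tested, 7.57% were called, 5.72% as higher and 1.85% as lower, so 1 of 9 is near the background. The higher share of the called genes was 75.6%, and 56.9% under median centring, which moved the median of all genes by -0.105 on the log2 scale. The median change of the 9 members was -0.05 on the log2 scale, against 0.07 over all genes tested, and 4 of the 9 were above 0. At an unadjusted p under 0.05 there were 3 of 9 members, against 23.1% of all genes. The 2i/L side of this comparison is 1 line, so the medium and the line cannot be told apart.

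Sgce, which encodes a sarcoglycan of the plasma membrane, was at 1.47, 7.84 and 9.75 FPKM in 2i-14 at p18, p39 and p50. In TSa2i-14 it was at 12.1, 27.1 and 17.5 FPKM at p22, p47 and p54, and in TSa2i-C57 at 20.8 and 23.0 FPKM at p9 and p58. All 5 TSa2i/L libraries were above all 3 of 2i-14, whose lowest value, at p18, stood well under the other 2. The log2 change was 1.73 with a standard error of 0.42, a 3.31-fold rise of FPKM + 1 (limma, adjusted p = 0.033). Without 2i-14 p18 it was 1.07 (adjusted p = 0.0588), and the call was also lost without TSa2i-14 p47 or p54 or TSa2i-C57 p9 or p58, thus in 5 of the 8 fits that each left out 1 library, with the change between 1.07 and 2.13. In these bulk samples fewer expressing cells and less RNA per cell cannot be told apart. Without the 3 libraries of high fibroblast level the change was 1.96 (adjusted p = 0.112), and with the fibroblast level as a covariate it was 1.70 (adjusted p = 0.0374). Mean fibroblast levels were 1.03 in the TSa2i/L libraries and 0.811 in 2i-14 on the log2(FPKM + 1) scale. The DMR-deleted lines in 2i/L had Sgce at 6.28 FPKM (2i-O48) and 4.25 FPKM (2i-O48-TKO), also under every TSa2i/L library.

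Plagl1, a zinc finger transcription factor, was at 17.5, 14.9 and 14.8 FPKM in 2i-14 at p18, p39 and p50. In TSa2i-14 it was at 7.88, 12.7 and 9.98 FPKM, and in TSa2i-C57 at 8.26 and 5.45. The groups did not overlap, which held for 16.5% of all genes tested. The log2 change of -0.80 with a standard error of 0.23 did not pass the threshold (limma, adjusted p = 0.0608). It passed in 2 of 17 alternatives, when 2i-O48 and 2i-O48-TKO were added to the 2i/L side, at -0.71, and without TSa2i-14 p47, at -0.93 (limma, adjusted p = 0.0359 and 0.0417). In the other 15 it did not, with adjusted p up to 0.296.

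The other 7 members tested did not pass. Snrpn was at 162, 177 and 205 FPKM in 2i-14 and at 180.4 to 296 with a median of 200.5 in TSa2i/L, and the groups overlapped. Impact was at 71.8, 35.0 and 43.7 FPKM in 2i-14 and at 48.8 to 78.4 with a median of 64.4 in TSa2i/L. Mest, at 34.8, 16.6 and 12.6 FPKM in 2i-14, was at 1.03 to 27.7 with a median of 15.7 in TSa2i/L, and its log2 change of -1.14 had a 95% interval from -2.83 to 0.55. The changes of Nnat, Zrsr1, Inpp5f and Peg3 were -0.39, -0.29, -0.05 and 0.01 on the log2 scale, with adjusted p from 0.213 to 0.991 in limma. For Nap1l5, too low to be tested, the values were 0.249 to 0.611 FPKM in 2i-14 and 0.348 to 1.35 in TSa2i/L.

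**Figure D2:**
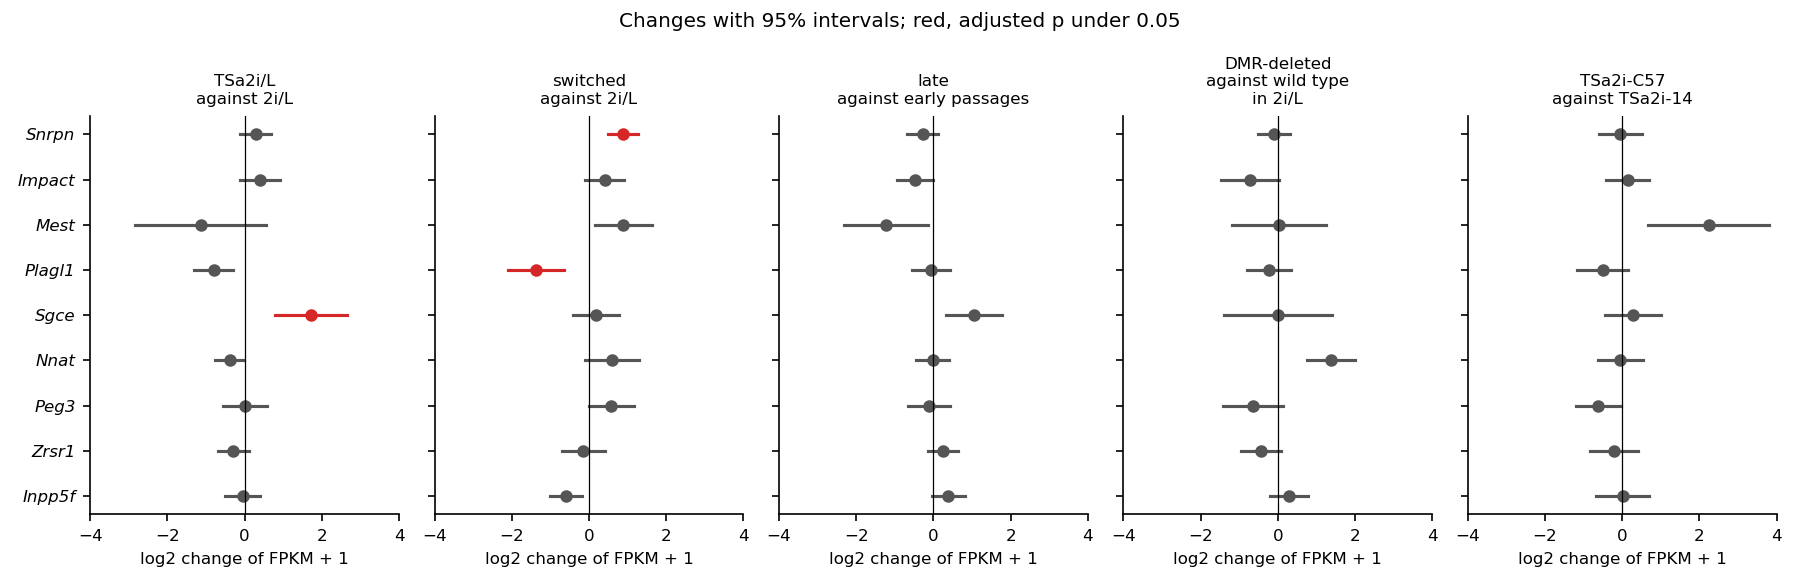
Log2 change of FPKM + 1 (points) with 95% intervals (lines) for the 9 members tested, in 5 comparisons. Red marks an adjusted p under 0.05 in limma, which was reached by Sgce in TSa2i/L against 2i/L, at 1.73, and by Snrpn and Plagl1 in the switched cultures, at 0.89 and -1.38.

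The second comparison followed the same 3 lines from 2i/L to 5 passages in SF/a2i/L, with the line as a block and 2i-14 p50 as the control of 2i-14. Of these lines 2i-O48 and 2i-O48-TKO may share an origin, so they may not be independent. Snrpn rose and Plagl1 fell among the 9 members tested. Over all 9759 genes tested, 6.89% were called, 2.22% as higher and 4.66% as lower. The higher share of the called genes was 32.3%, and 53.4% under median centring, which moved the median of all genes by 0.168. The median change of the 9 members was 0.41 on the log2 scale, against -0.09 over all genes, and 6 of the 9 were above 0. In all 3 lines 5 members were higher after the switch, which held for 19.4% of all genes tested, and 2 were lower, which held for 29.4%. Those higher were Snrpn, Peg3, Mest, Impact and Nnat, and those lower were Inpp5f and Plagl1. With 2i-14 p18 as the control of 2i-14 only 4 were higher, Snrpn, Mest, Nnat and Sgce, and with p39 there were 6, against 19.9% of all genes tested with either. The lower members were Inpp5f and Plagl1 with each control. The control libraries of this comparison also serve the others described here, so the comparisons are not independent.

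Snrpn, the SmN splicing protein gene, went from 205 to 424 FPKM in 2i-14, from 171 to 271 in 2i-O48-TKO and from 167 to 323 in 2i-O48. Every switched culture was above every 2i/L culture of the series, including 2i-14 at p18 and p39. The log2 change was 0.89 with a standard error of 0.16, a 1.85-fold rise of FPKM + 1 (limma, adjusted p = 0.0323). The call held in 8 of 10 alternatives, with changes from 0.81 to 1.05, and was lost without 2i-O48-TKO and with no filter on low values (limma, adjusted p = 0.133 and 0.148). Snurf, on the same transcript, had a log2 change of 0.85 (limma, adjusted p = 0.0588).

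Plagl1 went from 14.8 to 2.42 FPKM in 2i-14, from 15.6 to 7.13 in 2i-O48 and from 11.05 to 5.38 in 2i-O48-TKO. It was thus lower in each line, and all 3 switched values were under all 3 of their controls. The log2 change was -1.38 with a standard error of 0.30 (limma, adjusted p = 0.0487). The call rested on a narrow margin, since it held in 4 of 10 alternatives and was lost without 2i-14, where the change was -0.97, and without 2i-O48-TKO, where it was -1.62. Against 2i-14 at p18 and p39 the 2i-14 change was -2.44 and -2.22.

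Other members differed in one direction in the 3 lines without passing. Mest went from 12.6 to 35.8 FPKM in 2i-14 and from 11.98 to 28.8 in 2i-O48-TKO, but stayed at 32.7 and 33.0 in 2i-O48, and its log2 change was 0.88 (limma, adjusted p = 0.138). All 3 switched cultures thus came to 28.8 to 35.8 FPKM from unequal starts, and 2i-14 at p18, in 2i/L, was already at 34.8. Without 2i-O48 the Mest change was 1.32 and that of Peg3 0.86 (limma, adjusted p = 0.00598 and 0.031).

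Nnat, neuronatin, was likewise less spread between the lines after the switch than before it. The share of all genes for which this held was not computed. It went from 4.90 to 13.9 FPKM in 2i-14, from 10.4 to 13.8 in 2i-O48-TKO and from 15.6 to 16.4 in 2i-O48. The log2 change of 0.59 did not pass (limma, adjusted p = 0.25), and most of it came from 2i-14, where it was 1.34. It was 0.37 and 0.07 in the 2 lines that started high.

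Peg3 was at 1.50 FPKM in 2i-14 p50 and at 3.06 in switched 2i-14. In 2i/L and after the switch it was at 1.68 and 1.71 in 2i-O48, and at 0.747 and 2.55 in 2i-O48-TKO. Impact went from 43.7 to 44.7 FPKM in 2i-14, from 25.6 to 39.4 in 2i-O48 and from 32.1 to 48.6 in 2i-O48-TKO. Against 2i-14 p18, at 3.68 FPKM of Peg3 and 71.8 of Impact, switched 2i-14 was lower, by log2 changes of -0.21 and -0.67. Inpp5f was under its control in every line, from 1.70 to 0.914 FPKM, from 2.22 to 1.196 and from 1.96 to 0.793 in the same order, with a log2 change of -0.59 (limma, adjusted p = 0.098). Groups did not overlap for 4 members, Snrpn, Plagl1, Inpp5f and Peg3, against 31.3% of all genes tested.

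Sgce, the member called in TSa2i/L, was at 8.03 FPKM in switched 2i-14, at 4.76 in switched 2i-O48-TKO and at 10.8 in switched 2i-O48, under every TSa2i/L library. Its log2 change after the switch was 0.19, with a 95% interval from -0.41 to 0.79. In 2i-14 the sign depended on the control, being -0.25 against p50, 0.03 against p39 and 1.87 against p18. Zrsr1 was at 2.35 FPKM in 2i-14 p50 and at 1.08 in switched 2i-14. It was at 1.61 in 2i-O48 in 2i/L and at 1.85 after the switch, and its log2 change over the 3 lines was -0.15.

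**Figure D3:**
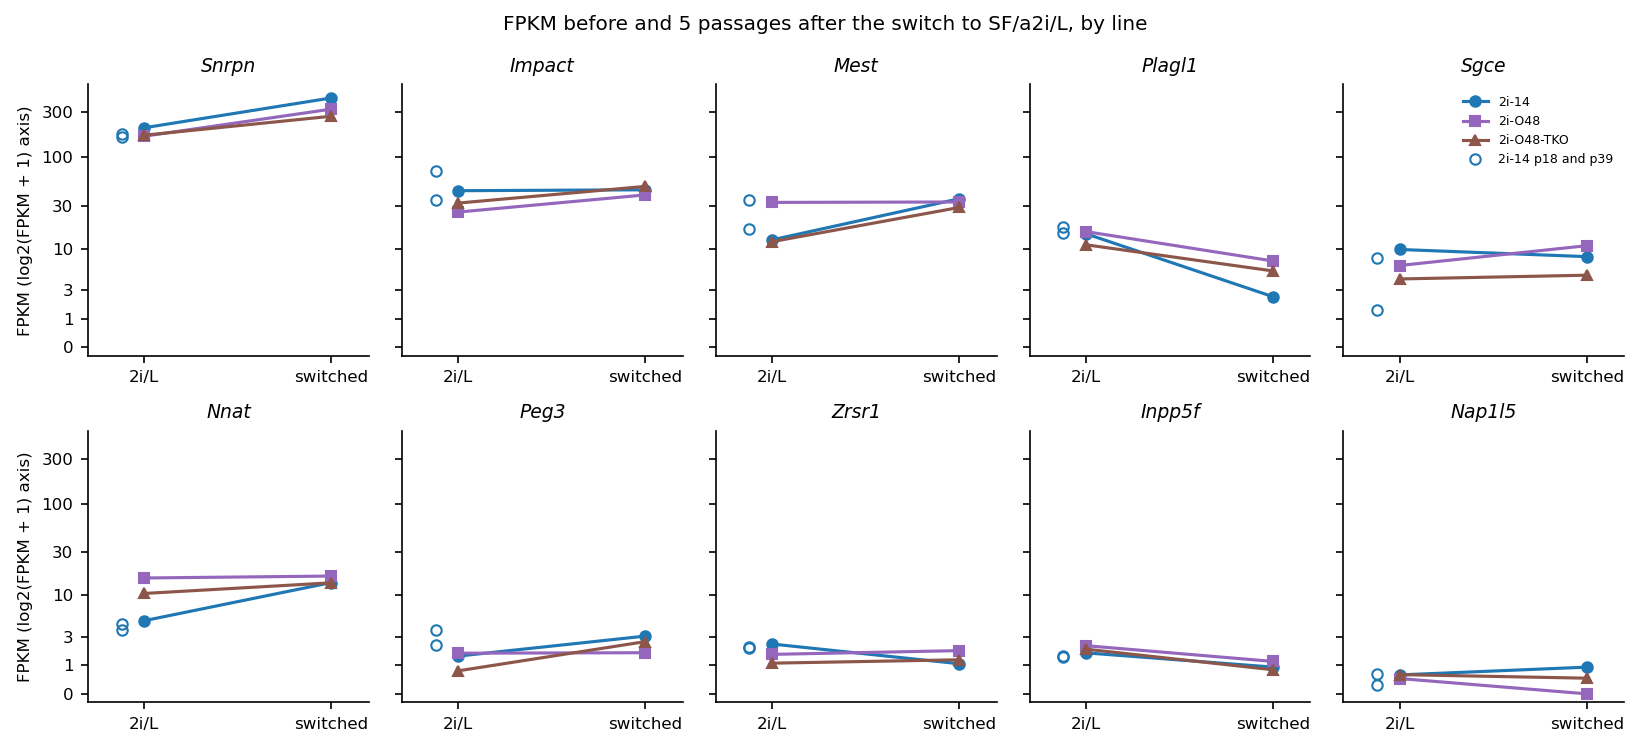
FPKM in 2i/L and 5 passages after the switch for each of the 10 genes, on a log2(FPKM + 1) axis. Lines join the cultures of 2i-14 (circles), 2i-O48 (squares) and 2i-O48-TKO (triangles), and open circles are the other 2 libraries of 2i-14 in 2i/L. Snrpn rose and Plagl1 fell in all 3 lines, and the switched cultures had Mest at 28.8 to 35.8 and Nnat at 13.8 to 16.4 FPKM.

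The third comparison set the 5 wild-type libraries over p30 against the 3 under it, with the line as a block, since the study divides early from late there. No member passed the test, and 0 of 10387 genes did in limma, with 837, or 8.06%, at an unadjusted p under 0.05. At that unadjusted level 3 members lay, which were Sgce at 1.05, Mest at -1.23 and Impact at -0.47 on the log2 scale (adjusted p of 0.515, 0.598 and 0.615). Early and late libraries overlapped for all 9 members, while 4.91% of all genes had groups that did not. Fibroblast levels moved with passage, with a mean of 1.30 in the late and 0.349 in the early libraries. With that level as a covariate the Sgce change was 1.31 and the Mest change -1.65. Without the 3 libraries of high level they were 1.61 and -2.22 (limma, adjusted p = 0.306 and 0.304).

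Sgce was higher at late than at early passage in each of the 3 lines. In 2i-14 the earliest passage had 1.47 FPKM and the later ones 7.84 and 9.75. TSa2i-14 had 12.1 FPKM at p22 and more at both later passages, and TSa2i-C57 differed little, with 20.8 and 23.0 FPKM. Mest did not share a direction. It was at 34.8, 16.6 and 12.6 FPKM over the passages of 2i-14 and at 15.7, 1.03 and 2.67 FPKM over those of TSa2i-14, but at 18.2 and 27.7 FPKM at p9 and p58 of TSa2i-C57. The 2 lowest Mest values of the series were thus both late TSa2i-14 cultures, of which p54 had the highest fibroblast level of all libraries and p47 a level of 0.325, among the other 10.

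Snrpn was lower at late passage in both TSa2i/L lines, from 296 to 189 and 200.5 FPKM in TSa2i-14 and from 259.8 to 180.4 FPKM in TSa2i-C57. In 2i-14 the order was opposite, with 162 FPKM at p18 and 205 at p50. Over the 3 lines its log2 change was -0.28, with an interval from -0.68 to 0.13. Impact was lower in each later library than in the earliest of its line, apart from TSa2i-14 p47, at 72.1 against 64.4 FPKM at p22.

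**Figure D4:**
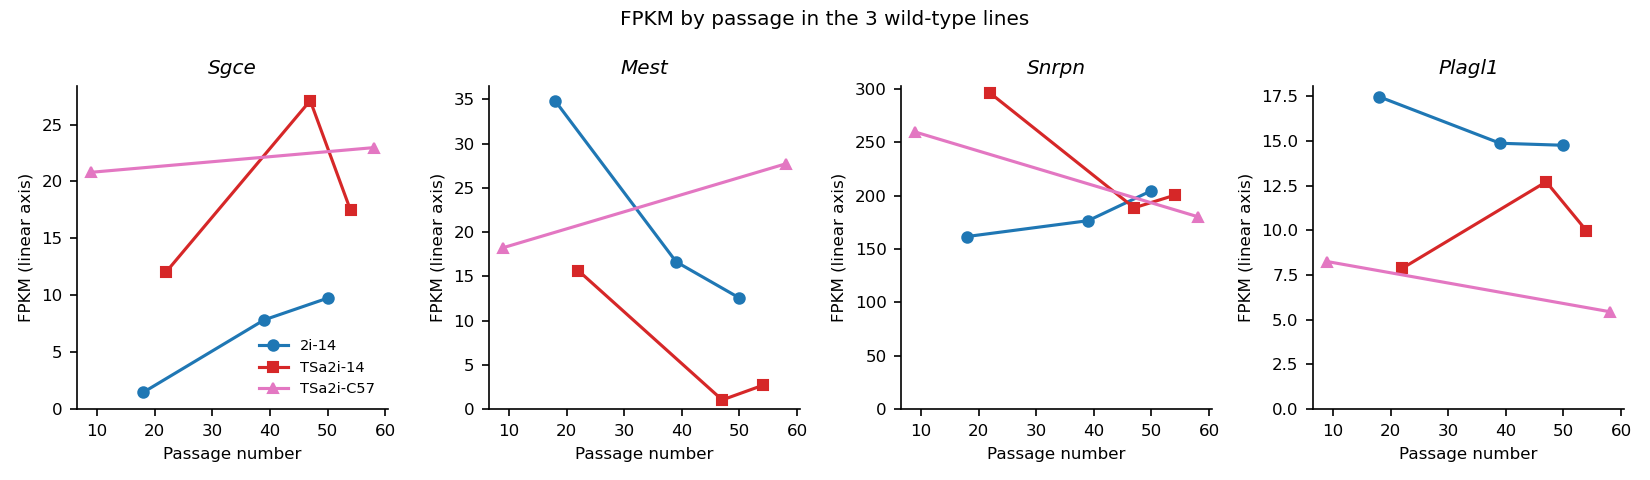
FPKM on linear axes from 0 against passage number for Sgce, Mest, Snrpn and Plagl1 in 2i-14, TSa2i-14 and TSa2i-C57. Points are libraries joined within a line. The TSa2i/L lines lay above 2i-14 for Sgce and below it for Plagl1, and Mest was lowest in TSa2i-14 at p47 and p54.

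The fourth comparison set the DMR-deleted lines against 2i-14, all in 2i/L. The deletions remove DMRs of other imprinted loci and cannot be told apart from the line, since 2i-O48 and 2i-O48-TKO gave 1 library each. No member passed, and 0.118% of 10164 genes did, 0.0787% as higher and 0.0394% as lower. At an unadjusted p under 0.05 there was 1 of 9 members, Nnat, against 5.79% of all genes. Nnat was at 15.6 FPKM in 2i-O48 and at 10.4 FPKM in 2i-O48-TKO, against 4.40, 3.69 and 4.90 in 2i-14. Both deleted lines were above all 3 wild-type libraries, and the log2 change was 1.38 with a standard error of 0.26 (limma, adjusted p = 0.166). Nnat in TSa2i/L, at 2.70 to 3.83 FPKM, was under both deleted lines too. Impact was lower, at 25.6 and 32.1 FPKM against 35.0 to 71.8, with a log2 change of -0.72 (adjusted p = 0.891). Of the 9 members 4 had groups that did not overlap, Nnat, Impact, Zrsr1 and Inpp5f, against 19.6% of all genes tested. For Snrpn, at 167 and 171 FPKM in the deleted lines, the interval of the change ran from -0.52 to 0.33.

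The fifth comparison, TSa2i-C57 against TSa2i-14, showed how far 2 wild-type lines in the same medium differed, of which TSa2i-14 carries actin-EGFP. No gene of 10502 was called by limma, with 366, or 3.49%, at an unadjusted p under 0.05. Mest was at 18.2 and 27.7 FPKM in TSa2i-C57 and at 15.7, 1.03 and 2.67 in TSa2i-14, a log2 difference of 2.23 with a standard error of 0.70 (adjusted p = 0.999). When TSa2i-14 p54 and TSa2i-C57 p58, the libraries of high fibroblast level, were left out, the difference was 1.73, between 1 library of TSa2i-C57 and 2 of TSa2i-14 that themselves differed widely, so no call is drawn from it. Peg3 was at 1.29 and 2.01 FPKM in TSa2i-C57, under the 2.75 to 3.50 of TSa2i-14, at a log2 difference of -0.62. Groups of Mest and Peg3 did not overlap, which held for 15.9% of all genes.

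Other paternally expressed genes were set beside the members, but the list is mixed. It holds Igf2, Dlk1, Rtl1, Dio3 and Rasgrf1, from loci with paternally methylated DMRs, and Snurf, from the Snrpn transcript. Of 21 listed, 20 were in the files, 10 reached 1 FPKM in any library and 4 in all, which were Mcts2 at 119 to 199 FPKM, Slc38a4 at 16.0 to 58.8, Snurf at 8.28 to 22.4 and Ndn at 6.76 to 22.8. Ins2 was listed at 0 in every library. In TSa2i/L against 2i/L 1 of 7 tested fell and none rose, where 1.85% of all genes tested were called as lower. That gene was Peg12, at 5.73, 4.03 and 3.82 FPKM in 2i-14 and 0.85 to 2.60 in TSa2i/L, a log2 change of -0.97 (adjusted p = 0.0342). After the switch 2 of 7 fell and none rose, where 4.66% of all genes tested were called as lower. Peg12 changed by -1.11 (adjusted p = 0.0358), and Slc38a4, an amino acid transporter gene, by -1.23 (adjusted p = 0.0294). Neither these genes nor the members had a call in the other 3 comparisons.

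Genes listed as maternally expressed were tested in the same fits. Of 18 listed, 3 reached 1 FPKM in every library, Gnas at 45.8 to 85.8 FPKM, Phlda2 at 6.77 to 96.4 and Tssc4 at 15.0 to 39.5. Which of the list are silent in a sperm genome was not tested. In TSa2i/L 2 of 9 tested rose, Phlda2 by 1.85 and Slc22a18 by 2.29 on the log2 scale, and Meg3 fell by 1.29. Over all genes tested there, 5.72% were called as higher and 1.85% as lower. After the switch 3 of 8 rose, Phlda2 by 3.04, Slc22a18 by 2.09 and Grb10 by 1.43, against 2.22% of all genes tested. Of the 12 genes that maintain or remove imprints, Zfp57, Trim28 and the DNA methyltransferases among them, none was called in TSa2i/L or after the switch. Zfp57 was at 32.9 to 98.7 FPKM, and its log2 changes were 0.57 (adjusted p = 0.139) and 0.49 (adjusted p = 0.17). The 8 host or neighbouring genes tested had no call in these 2 comparisons. Copg2, antisense to Mest, was at 4.78 to 10.2 FPKM with log2 changes of 0.44 and 0.18 and adjusted p of 0.232 and 0.64 in limma. Among pluripotency markers Nanog fell after the switch, by 0.93 (adjusted p = 0.0483).

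For each member tested, the genes of most similar pattern were those of highest Pearson r in log2(FPKM + 1) over the 13 libraries, among 10731 genes. The libraries share lines and media, so r is a description. Snurf led for Snrpn at 0.998, followed by Sub1 at 0.945. Inpp5f was closest to 4930558C23Rik, at 0.980, and Ccrn4l, at 0.907, Impact to Tmem39a and Lace1, at 0.939 and 0.927, and Nnat to Gm10069 and Taf12, at 0.934 and 0.907. Plagl1 was closest to Cited1, at 0.926, and Tmem181b-ps, at 0.917, and Mest to 2610305D13Rik and Cops2, at 0.918 and 0.913. For Sgce these were Mrps15 and Tmem14a, at 0.901 and 0.885, for Peg3 Kif15 and Gstp1, at 0.908 and 0.843, and for Zrsr1 Ids and Cnot6, at 0.844 and 0.803. No member was among the 2 nearest genes of another. Between members r ran from -0.80 for Snrpn with Plagl1 to 0.66 for Zrsr1 with Plagl1.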

How the data were processed

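RNA-seq of 13 libraries was analysed, and methylation and chromatin samples were not analysed here. Per the study's methods, the authors amplified full-length cDNA with a single-cell kit, aligned the reads to mm9 using TopHat, and the deposited values are FPKM from Cufflinks, with no counts. The submitters' notes name TopHat2 2.0.11, Bowtie2 2.2.2 and Cufflinks 2.2.1. The gene annotation is not given in the sources used here.

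Rows of a repeated symbol (268 of 24028) were summed. 5 comparisons were fitted with limma 3.58.1 (R 4.3.3) on log2(FPKM + 1) with an intensity trend and Benjamini-Hochberg adjustment over all genes tested, at 0.05. A gene entered a test if it reached 1 FPKM in 3 libraries, or in 2 for the DMR deletions and for the pair of TSa2i/L lines (the size of the smaller group). A pseudocount of 1 understates changes of low genes. 9 members were tested throughout, and Nap1l5 never passed. The line blocked the switch and passage comparisons because switched and unswitched cultures, and passages, come from the same line. Deviations of paired switch libraries correlated at 0.17 in 2i-14, 0.36 in 2i-O48-TKO and -0.14 in 2i-O48. Implied depth came from the smallest FPKM of 3737 single-transcript genes, and the floor is 3 fragments, for counting error only. The depth estimate and the limma fits were run on simulated data, with outcomes not given here, and the floor was not.

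Members, gene lists and tests were chosen with earlier results of these data known. All 10 members are named whatever their values, listed genes by up to 4 examples, and the 2 genes of highest r per member. Alternatives were another pseudocount, filter, scaling, row choice, block, control set or covariate, and each library left out. 2 fits without fibroblast-rich libraries, for passage and for the TSa2i/L lines, the other controls of switched 2i-14 and the ratios without the lowest library were added after the data were seen. Other steps used Python 3.11.15, pandas 2.3.3, numpy 2.4.6 and matplotlib 3.10.9.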

Additional observations from a re-analysis of the deposited data

Results flagged for a closer look

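No member had a library set apart from the rest in the 5 TSa2i/L libraries by Dixon's criterion. In 10 cases a member moved in opposite directions in 2 groups of cultures under the same contrast, and these differences were not tested. Values are differences of mean log2 changes, first group minus second. After the switch, 2i-14 differed from the DMR-deleted lines by -0.815 for Zrsr1, which was lower in switched 2i-14 than at p50, p39 and p18 alike, by -0.664 for Sgce, whose sign in 2i-14 depended on the control, and by 0.603 for Nap1l5, which was under 1 FPKM in all of them. From early to late passage, 2i-14 differed from TSa2i-14 by 0.836 for Snrpn and by -0.692 for Plagl1. It differed from TSa2i-C57 by 0.755 for Snrpn, by -1.11 for Peg3 and by -1.79 for Mest. TSa2i-14 differed from TSa2i-C57 by -3.18 for Mest and by 0.988 for Plagl1. TSa2i-C57 gave 1 late library and 2i-14 gave 1 switched library, so these rest on single cultures.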

How the results depend on the processing

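Of the 9 members tested in TSa2i/L against 2i/L 1 was called, and 0 were with no filter on low FPKM, with median centring, with quantile normalization, without 2i-14 p39, TSa2i-14 p54 and TSa2i-C57 p58 and with TSa2i-14 only, while 2 were when 2i-O48 and 2i-O48-TKO joined the 2i/L side. Leaving out each library gave 0 to 1. The Sgce change stayed above 0 in all 17 alternatives, with adjusted p under 0.05 in 7. After the switch 2 members were called, against 1 with the pseudocount of 0.1, median centring or quantile normalization, 0 with no filter, and 0 to 4 when each line was left out. For the switch without the replicate block the count stayed at 2, and the changes of Snrpn and Plagl1 were 0.89 and -1.38. In TSa2i-C57 against TSa2i-14 the count of 0 became 1, Mest, without TSa2i-14 p54 and TSa2i-C57 p58, but that fit has 1 TSa2i-C57 library, assumed to vary like the 2 of TSa2i-14, and supports no call. The same assumption holds wherever 1 library of a pair was left out. The passage and DMR-deletion comparisons called 0 members under every alternative run.

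Of the values recomputed for single members, 511 kept their direction and side of the threshold, 18 lost a call, 5 gained one and 51 changed sign, none of them a value that had been called. In TSa2i/L against 2i/L the Peg3 change was -0.0956 with median centring, -0.124 with quantile normalization, -0.0911 without the 3 libraries of high fibroblast level and -0.0173 with the fibroblast covariate. In passages without the replicate block Nnat was at 0.00927 and Plagl1 at 0.0557, with TSa2i/L lines only Peg3 was at 0.220 and Plagl1 at 0.0440, with the fibroblast covariate Nnat was at 0.160 and Plagl1 at 0.0608, and without the 3 libraries Nnat was at 0.218 and Plagl1 at 0.199. In the DMR-deleted lines Mest and Sgce were at -0.0332 and -0.0595 with median centring and at -0.0453 and -0.0785 with quantile normalization. Zrsr1 after the switch was at 0.0213 with median centring. In TSa2i-C57 against TSa2i-14 Inpp5f was at -0.0110 with the pseudocount of 0.1, Nnat at 0.00432 with quantile normalization, and Snrpn and Inpp5f at 0.135 and -0.244 without p54 and p58.

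Leaving out each library or line gave ranges that crossed 0 for 13 values. They were -0.207 to 0.246 for Peg3 and -0.146 to 0.0442 for Inpp5f in TSa2i/L, -0.286 to 0.125 for Zrsr1 and -0.0596 to 0.413 for Sgce after the switch, and -0.313 to 0.220 for Peg3, -0.103 to 0.0397 for Nnat and -0.351 to 0.122 for Plagl1 between passages. In the DMR-deleted lines they were -0.657 to 0.719 for Mest and -0.656 to 0.405 for Sgce. Between the TSa2i/L lines they were -0.309 to 0.214 for Snrpn, -0.0802 to 0.357 for Impact, -0.144 to 0.0653 for Nnat and -0.369 to 0.393 for Inpp5f. The cause of these shifts was not tested. At the implied depths the low values of Nap1l5 rest on few fragments. Peg3 and Inpp5f have longer exon lengths, and their values under 1 FPKM rest on more. The 3-fragment floor was 0.0120 FPKM for Peg3 in 2i-O48-TKO and 0.0213 FPKM for Inpp5f in its switched culture.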
